A study of Rattus norvegicus with 6 samples.

Results

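The NADPH oxidase genes Nox4, Nox1, Cybb, Cyba, Ncf1 and Ncf4 and the small GTPase genes Rac1 and Rac2 were examined in whole kidneys of salt-fed Dahl salt-sensitive (Dahl S) and Lewis rats. Members were the probe sets of the deposited array table whose only gene symbol in the platform annotation was 1 of these 8. All 8 genes were found, on 11 probe sets, among 14217 genes with a single symbol. The groups were 3 male Dahl S rats and 3 male Lewis rats, with 1 array of kidney RNA per rat. The diet held 8% NaCl, was started at an age of 5 weeks and lasted 8 weeks, and it was shared by both strains, so strain effects and responses to salt cannot be told apart. Dahl S rats become hypertensive on such a diet. The strains differ across their genomes, and sequence differences under the probes were not masked, so their part in any probe set's value was not tested.

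NADPH oxidases are membrane enzymes that pass electrons from NADPH to oxygen and so make superoxide or hydrogen peroxide. The phagocyte enzyme consists of the catalytic subunit NOX2 (gene Cybb) and its membrane partner p22phox (Cyba), and it is switched on when cytosolic subunits, among them p47phox (Ncf1) and p40phox (Ncf4), and a GTP-bound Rac protein join it. NOX4 also binds p22phox, but it makes mostly hydrogen peroxide and is active without the cytosolic subunits or Rac. Nox4 is strongly expressed in kidney tubules, Rac1 is expressed in nearly all cells, and Rac2 is expressed mainly in blood cells. In the Dahl S rat, renal oxidase activity has long been studied as a contributor to salt-sensitive hypertension.

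The 250 bases before the annotated start of Nox4 and of Cybb are shown because these genes encode the tubular and the phagocyte catalytic subunits whose strain differences are compared. The sequences are from RefSeq (GRCr8 build), 5′ to 3′ on the strand of the gene. Capitals mark GAGGAA on either strand, a purine-rich box of the kind bound by ETS factors such as the myeloid factor PU.1.
Nox4, chr1:150313639-150313888, plus strand: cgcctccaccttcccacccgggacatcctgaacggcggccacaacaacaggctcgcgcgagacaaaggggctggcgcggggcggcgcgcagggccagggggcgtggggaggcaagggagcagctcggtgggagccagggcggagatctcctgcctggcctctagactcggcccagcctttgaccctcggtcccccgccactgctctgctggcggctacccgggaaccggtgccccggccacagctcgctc
Cybb, chrX:16065066-16065315, minus strand: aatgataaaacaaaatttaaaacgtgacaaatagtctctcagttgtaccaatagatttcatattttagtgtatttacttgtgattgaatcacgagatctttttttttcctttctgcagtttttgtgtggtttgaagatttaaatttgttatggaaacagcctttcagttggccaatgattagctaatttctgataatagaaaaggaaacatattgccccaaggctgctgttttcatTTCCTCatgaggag
The Nox4 window held 72.8% G and C, and it contained GGGCGG (either strand) 2 times and GAGGAA 0 times. The Cybb window held 32% G and C. It contained GAGGAA 1 time, on the strand opposite to the gene and beginning 14 bases before the start, and CCAAT (either strand) 2 times. Of 33469 rat promoter windows of the same length, 23.3% held GAGGAA, 30.5% GGGCGG and 34.0% CCAAT on either strand, so such matches are common. Of the other members, Nox1, Cyba and Ncf1 had an entry, and GAGGAA occurred 1 time for Nox1 and 0 times for Cyba and Ncf1.

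Arrays differed in brightness before normalization, with a 2% trimmed mean signal of 118, 229 and 174 in Lewis rats 1, 2 and 3, against 224, 249 and 204 in Dahl S rats 1, 2 and 3. Signals were therefore brought to a common distribution by quantile normalization of log2(signal + 16), and every difference below is relative to the typical probe set. A probe set was tested if it exceeded the median of all normalized values (6.28, or a signal of 61.6) on at least 3 of the 6 arrays. The test was limma's moderated fit over all 15797 such probe sets with Benjamini-Hochberg adjustment, and a difference was called at an adjusted p under 0.05. By this rule 16.2% of probe sets were called, 8.5% higher and 7.75% lower in Dahl S. All 23 measured proximal tubule markers were bright enough to be tested. In bulk tissue, fewer cells of a type and less RNA per cell cannot be told apart.

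Of the 11 member probe sets, 7 were tested, from 5 genes, and 2 were called. Nox4 was lower in Dahl S and Rac2 was higher, while Cybb, Cyba and Rac1 did not pass. Ncf1, Ncf4, Nox1 and the second probe set of Cyba were too dim to be tested. Against the 16.2% of all probe sets that were called, 2 of 7 is too small a count to set the members apart.

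**Figure D1:**
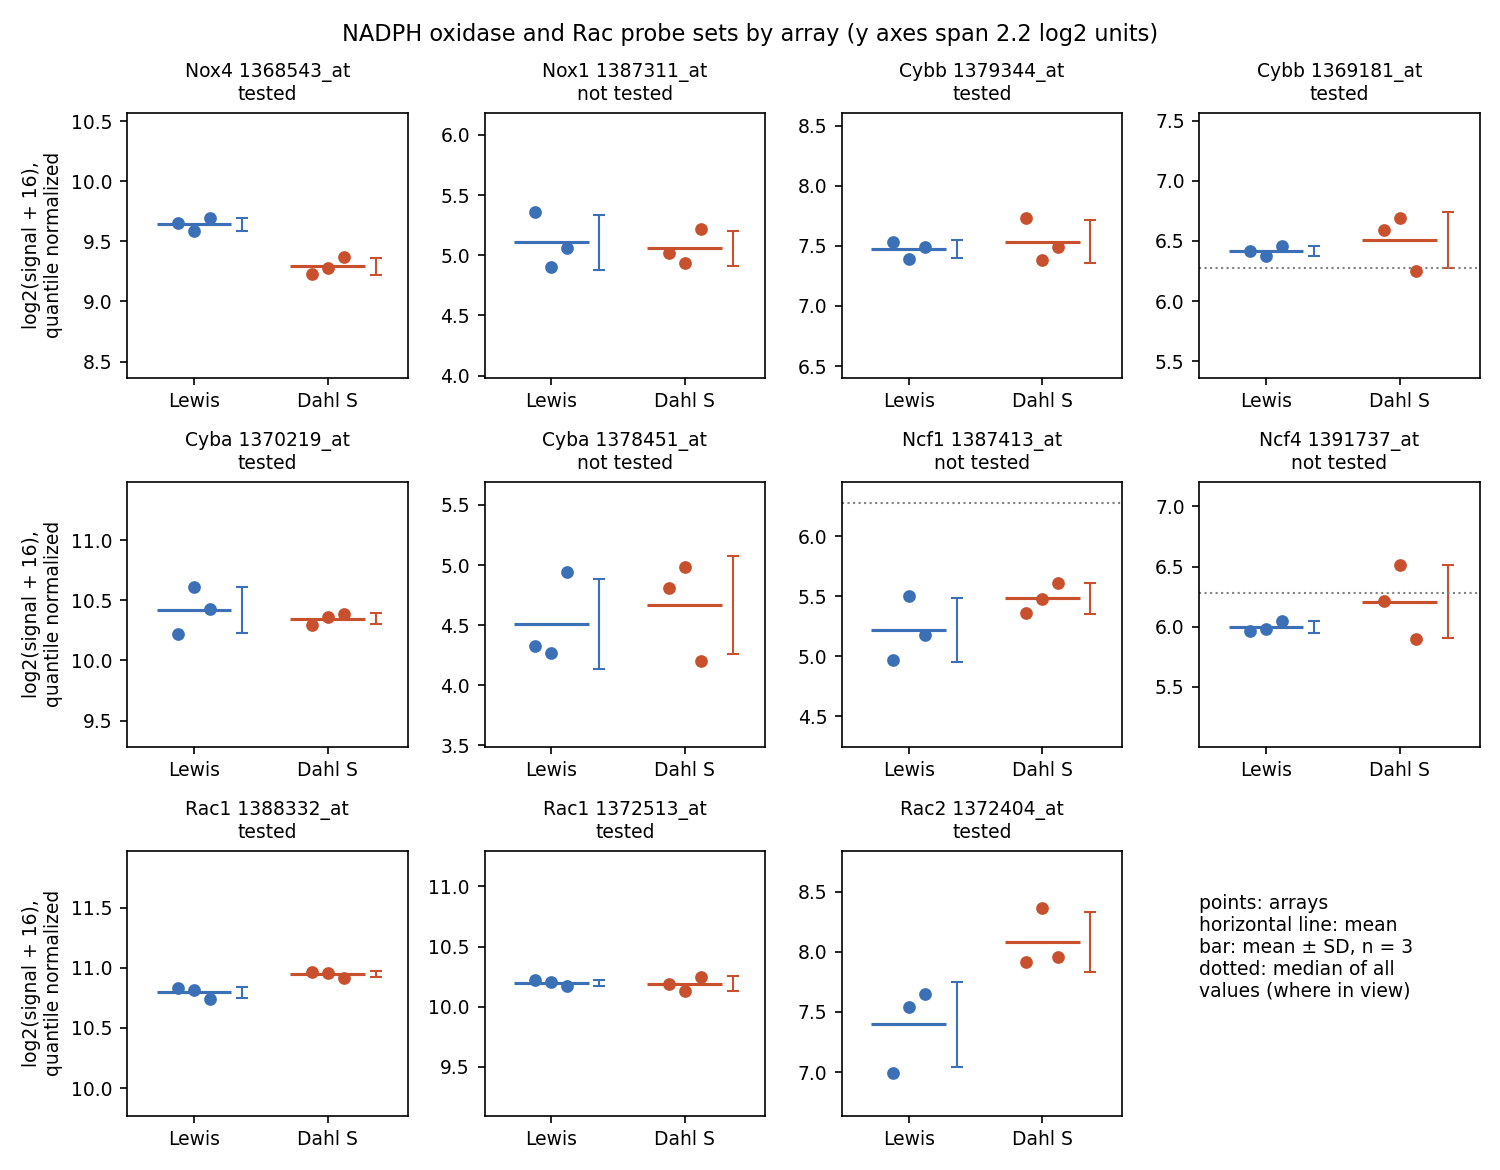
Quantile-normalized log2(signal + 16) of the 11 member probe sets on each array (points), with the mean (line) and SD (bar, n = 3) of Lewis (blue) and Dahl S (orange), and each y axis spanning the same distance. Lewis and Dahl S do not overlap for Nox4, for Rac2 and, by a small gap, for the brighter Rac1 probe set.

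Nox4 RNA was 1.27-fold lower in Dahl S kidneys. Normalized log2 values were 9.65, 9.58 and 9.69 for Lewis arrays 1, 2 and 3, compared with 9.23, 9.28 and 9.37 for Dahl S arrays 1, 2 and 3. Every Dahl S value lay below every Lewis value, and the gap was wider than the spread within either strain. The strain means were 9.64 ± 0.055 in Lewis and 9.29 ± 0.07 in Dahl S (SD, n = 3 each). Nox4 fell by 0.35 on the log2 scale (SE 0.08, 95% interval -0.52 to -0.18, limma adjusted p = 0.0087). A single probe set (1368543_at) measured the gene, and it was brighter than 91.4% of all probe sets. A difference at least as large in either direction was found in 15.9% of 9540 genes tested.

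The Nox4 call depended on the normalization. Deposited signals were 470, 887 and 737 on the Lewis arrays and 683, 782 and 689 on the Dahl S arrays, and these ranges overlap. Without normalization Nox4 differed by 0.08 (SE 0.34, adjusted p = 0.85), in a setting where the tested probe sets as a whole had a median difference of 0.41 and 93.4% of calls were higher, against 52.3% after quantile normalization. Scaling to a common median gave -0.34 (adjusted p = 0.026). Leaving out Dahl S array 1 gave -0.32 and ended the call (adjusted p = 0.054).

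Rac2, the Rac gene of blood cells, was 1.61-fold higher in Dahl S. Normalized log2 values were 6.99, 7.54 and 7.65 on the Lewis arrays and 7.91, 8.37 and 7.96 on the Dahl S arrays. All Dahl S values exceeded all Lewis values. Lewis array 1 was the lowest and Dahl S array 2 the highest, so the spread within each strain was wide: the means were 7.40 ± 0.35 and 8.08 ± 0.25 (SD, n = 3 each). Rac2 rose by 0.68 (SE 0.17, 95% interval 0.31 to 1.05, limma adjusted p = 0.017), and 3.79% of genes tested differed by as much in either direction. Deposited signals were 68.5, 197 and 163 in Lewis and 259, 406 and 246 in Dahl S, which do not overlap either, and Rac2 was called without normalization as well (1.08, adjusted p = 0.017). Leaving out Dahl S array 2 ended the call (0.54, adjusted p = 0.082), as it ended when all probe sets were tested without a filter (0.68, adjusted p = 0.064). Without Lewis array 1 the value was 0.48 and the call remained (adjusted p = 0.025).

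Rac1, whose product activates NOX enzymes and remodels actin in most cells, was represented by a pair of bright probe sets that gave different answers. The brighter one (1388332_at) read 10.83, 10.82 and 10.74 in Lewis and 10.96, 10.96 and 10.92 in Dahl S. Its ranges did not overlap, but the difference of 0.15 did not pass (SE 0.06, 95% interval 0.02 to 0.28, limma adjusted p = 0.12). The other (1372513_at) differed by -0.01 (SE 0.07, 95% interval -0.16 to 0.14, adjusted p = 0.96), with overlapping ranges. Nonoverlapping ranges were found for 3 of the 7 tested member probe sets and for 34.4% of all probe sets tested. Rac2 minus Rac1, a contrast chosen after the values were seen, was higher in Dahl S by 0.53 (SE 0.26; two-sided exact permutation p = 0.1, the smallest that 3 against 3 allows), or by 0.31 without Lewis array 1.

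The membrane subunits of the phagocyte enzyme did not pass. Cybb read 7.53, 7.39 and 7.49 in Lewis and 7.73, 7.39 and 7.49 in Dahl S on its brighter probe set (1379344_at). Only Dahl S array 1 lay above the Lewis range. The difference was 0.06 (SE 0.11, 95% interval -0.19 to 0.31, limma adjusted p = 0.76), and a second, dimmer probe set (1369181_at) gave 0.09 (SE 0.14, 95% interval -0.22 to 0.41, adjusted p = 0.72). The interval of the brighter probe set leaves out a rise as large as the 0.68 of Rac2 or a fall as large as the 0.35 of Nox4. Cyba, whose product stabilizes both NOX2 and NOX4, read 10.22, 10.61 and 10.43 in Lewis and 10.30, 10.36 and 10.39 in Dahl S. The Dahl S values lay inside the Lewis range, and the difference was -0.07 (SE 0.09, 95% interval -0.27 to 0.13, adjusted p = 0.65).

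**Figure D2:**
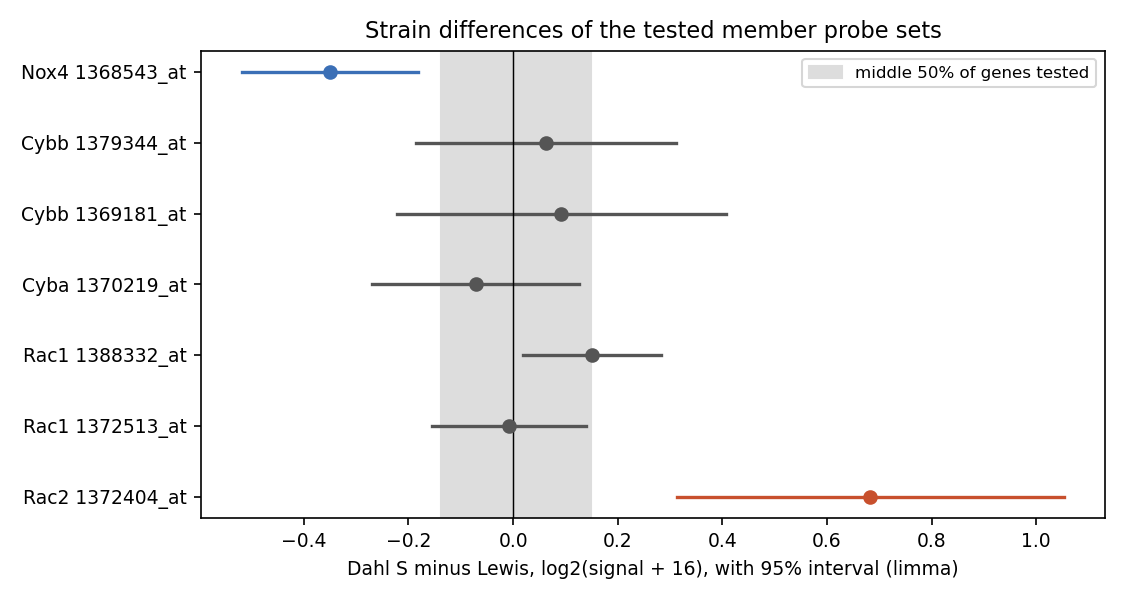
Dahl S minus Lewis difference in log2(signal + 16) for the 7 tested member probe sets, with limma's 95% interval (blue, lower; orange, higher; grey, not past the threshold) and the middle 50% of all genes tested (band). Nox4 lies at -0.35 and Rac2 at 0.68, and Cybb, Cyba and Rac1 lie near or inside the band.

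The remaining members gave dim signals. Ncf1, the organizing cytosolic subunit, had deposited signals of 10.3, 33.1 and 18.5 in Lewis and 27.4, 38.1 and 32 in Dahl S. It exceeded the median of all values on 0 arrays, and its normalized means were 5.22 ± 0.27 in Lewis and 5.48 ± 0.13 in Dahl S (SD, n = 3 each). Ncf4, which encodes a subunit that binds membrane lipid, had signals of 29.7, 52.7 and 44.2 in Lewis and 66.3, 98.8 and 44.0 in Dahl S, and exceeded the median on 1 array, Dahl S array 2. Its normalized means were 5.998 ± 0.05 and 6.21 ± 0.31, and Dahl S array 3 lay below all Lewis arrays. Nox1, a catalytic subunit best known from colon and vascular smooth muscle, had signals between 15.8 and 20.2 on the 6 arrays. The second probe set of Cyba (1378451_at) had signals between 2.0 and 20.7, far below the first, and it says little about that gene. In a fit of all probe sets without a filter, the adjusted p was 0.48 for Ncf1, 0.57 for Ncf4, 0.92 for Nox1 and 0.79 for this probe set of Cyba, at differences of 0.27, 0.21, -0.05 and 0.15.

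To set the tubular Nox4 directly against the phagocyte genes, the log2 value of each was subtracted from that of Nox4 on each array. This roughly removes the brightness of the array for the brighter partners Cybb, Cyba and Rac2. It does so less well for the dim Ncf1 and Ncf4, because a constant was added to each signal before the log2. Nox4 minus Rac2 was 2.66, 2.04 and 2.04 on the Lewis arrays and 1.32, 0.92 and 1.41 on the Dahl S arrays, with no overlap. Its strain difference was -1.03 (SE 0.26). Nox4 minus Cybb was 2.12, 2.19 and 2.199 in Lewis and 1.498, 1.90 and 1.88 in Dahl S, a difference of -0.41 (SE 0.13). The pairs with dim partners gave -0.62 (SE 0.18) for Ncf1 and -0.56 (SE 0.21) for Ncf4, again without overlap. Without normalization these pairs gave -0.36 for Ncf1 and -0.44 for Ncf4. Nox4 minus Cyba overlapped between strains and differed by -0.28 (SE 0.13).

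With 3 arrays against 3 the exact two-sided permutation test cannot go below p = 0.1. This exact test gave p = 0.1 for the pairs with Cybb, Ncf1, Ncf4 and Rac2 (0.125 adjusted over the 5 pairs) and 0.2 for Cyba, so 0 of 5 could pass 0.05 in this design. In 4 of 5 pairs the strains did not overlap. For comparison, Nox4 minus each of the other 9539 genes tested was lower in Dahl S without overlap in 66.7%, and differed without overlap in either direction in 68.8%. The count of pairs is therefore close to that background, and it does not set the phagocyte genes apart. In deposited signals, where Nox4 alone did not differ, Nox4 minus Rac2 was still lower, at -0.998, as was Nox4 minus Cybb, at -0.40, both without overlap, while Ncf4 and Cyba overlapped. Without Lewis array 1 the Cyba pair differed by -0.17.

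**Figure D3:**
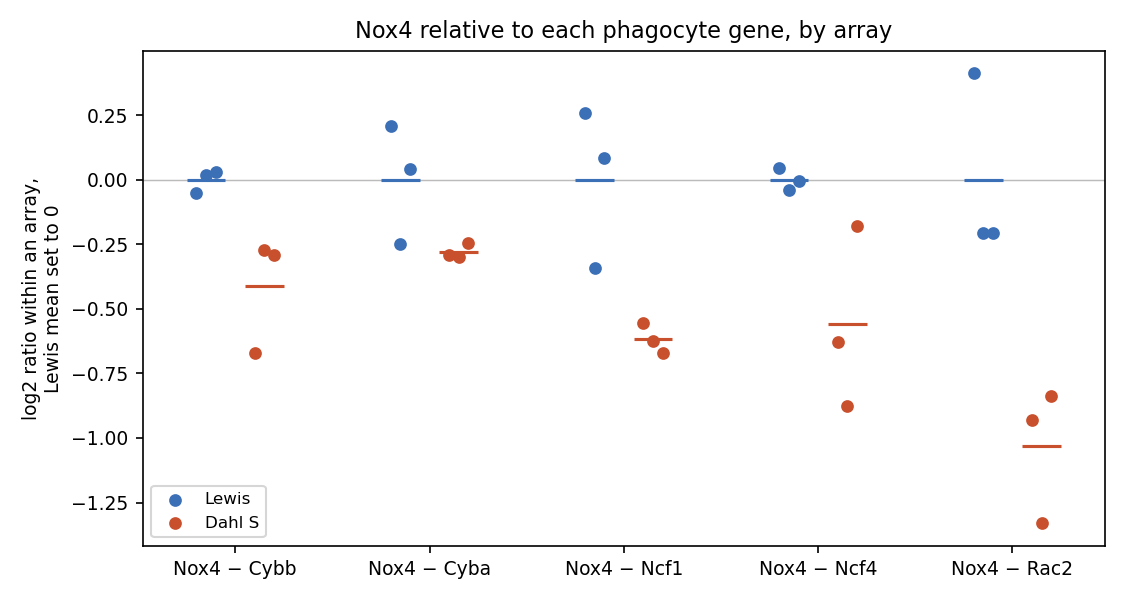
Difference in log2 value between Nox4 and each phagocyte gene on each array, with the Lewis mean of each pair set to 0 (points, arrays; lines, strain means; blue, Lewis; orange, Dahl S). All 3 Dahl S points lie below all Lewis points for Cybb, Ncf1, Ncf4 and Rac2, but not for Cyba.

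Like Rac2, most tested markers of macrophages and other myeloid cells, the cells that carry the phagocyte oxidase, were higher in Dahl S. Of 22 measured markers 20 were tested, and 14 rose, 0 fell and 6 did not pass, with a median difference of 0.46, where 16.7% of 9540 genes were called, 9.04% rose and the median of all was 0.0046. The summed signal of the list ran from 10487 to 11237 in Lewis and from 13039 to 13353 in Dahl S. Such sums, here and below, were taken from normalized values with the log2 and the added 16 undone, not from deposited signals. The pan-leukocyte phosphatase gene Ptprc rose by 0.97 (SE 0.11, limma adjusted p = 7.3e-05), the macrophage activation marker Aif1 by 0.83 (SE 0.10), the Fc receptor gene Fcgr1a by 0.81 (SE 0.12) and Ctss, a lysosomal protease gene, by 0.47 (SE 0.08). The number that rose was 8 when Dahl S array 1 was left out and 5 without normalization. Neutrophil markers were dim: 9 of 14 were measured, 0 passed the filter and their summed signal was 59.2 to 78.5 in Lewis and 82.1 to 117 in Dahl S. Of 16 measured lymphocyte markers 2 were tested, and the T cell kinase gene Lck rose by 0.54 (SE 0.14, limma adjusted p = 0.019), which did not pass when Dahl S array 2 or 3 was left out (adjusted p = 0.088 and 0.076) or without a filter (0.063). The defining T cell genes Cd3e, Cd3d and Cd3g and the B cell gene Ms4a1 were among those too dim to test, and no marker of these 3 lists was listed at 0 on any array. The part of cell numbers in the Rac2 difference was not tested.

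Rac2 and Cybb were each compared with these markers. Set against the mean log2 value of the 20 tested myeloid markers, a comparison chosen after the values were seen and given without a test, Cybb was -0.41, -0.63 and -0.46 on the Lewis arrays and -0.68, -1.02 and -0.95 on the Dahl S arrays. Every Dahl S value was lower, by 0.38 on average. The marker mean itself rose by 0.44, with an SD between arrays of 0.04 in Lewis and 0.02 in Dahl S. A gene that did not change would therefore also lie lower, and the share of all genes that did so was not counted. Rac2 against the same mean was -0.95, -0.48 and -0.30 in Lewis and -0.50, -0.04 and -0.49 in Dahl S, and these ranges overlapped. Rac2 minus Cybb, also chosen afterwards, was higher in Dahl S by 0.62 (SE 0.33, two-sided exact permutation p = 0.1). Its strain ranges did not overlap, but those of Rac2 alone did not either. The share of all genes for which Rac2 minus the gene did not overlap was not counted. Rac2 minus Cybb was higher by 0.39 when Lewis array 1 was left out or 0.40 when Dahl S array 2 was. The marker mean cancels in this contrast, so the comparisons with the markers add no separate evidence to it.

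Markers of proximal tubule and endothelium, where Nox4 is known to be expressed, were called lower more often than higher. Most were not called lower, though both list medians were below 0. Of 23 proximal tubule markers 11 fell, 1 rose and 11 did not pass, with a median of -0.17, where 7.62% of all genes fell. The lactate transporter gene Slc5a12 fell by 0.84 (SE 0.08), the gluconeogenic gene Pck1 by 0.49 (SE 0.05) and the organic anion transporter gene Slc22a6 by 0.69 (SE 0.09), while the aminopeptidase gene Anpep rose by 0.49 (SE 0.07). The summed signal of this list was 107900 to 112843 in Lewis and 98441 to 100220 in Dahl S. Of 11 endothelial markers 3 fell, 1 rose and 7 did not pass, with a median of -0.27. The diaphragm protein gene Plvap fell by 0.54 (SE 0.10), the sialomucin gene Emcn by 0.36 (SE 0.08) and the adhesion gene Pecam1 by 0.40 (SE 0.11), and the clotting carrier gene Vwf rose by 0.46 (SE 0.13). Pecam1 and Vwf no longer passed when any 1 Dahl S array or Lewis array 1 was left out, nor did Vwf when Lewis array 3 was. Leaving out Lewis array 3 gave 6 endothelial markers lower. Their summed signal was 5219 to 5482 in Lewis and 4363 to 4512 in Dahl S. Nox4 against the mean of the 23 proximal tubule markers was -2.06, -2.13 and -1.95 in Lewis and -2.26, -2.15 and -2.10 in Dahl S, with overlap and a difference of -0.13. Against the 11 endothelial markers it differed by -0.12, also with overlap. The part of cell numbers in the Nox4 difference was not tested. Without normalization 0 markers of either list fell, and scaling to a common median gave 16 proximal tubule markers lower. Leaving out Dahl S array 2 or 3 gave 7.

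Markers of smooth muscle and fibroblasts, which are among the cells known for Nox1 or Nox4, went the other way from the proximal tubule list in their median. Of 14 tested, 8 rose, 1 fell and 5 did not pass, with a median of 0.57. Among all genes 9.04% rose and 7.62% fell. Leaving out Dahl S array 1 gave 5 that rose. The matrix genes Dcn and Col3a1 rose by 0.86 (SE 0.06) and 0.74 (SE 0.07), and the filament gene Vim by 0.56 (SE 0.10). Cspg4, a pericyte proteoglycan gene, fell by 1.13 on the log2 scale (SE 0.18) to a Dahl S level of 5.52. All its Dahl S values lay under the filter, so it was tested only through the Lewis arrays, where it is high, and it was not tested under the stricter filter or without normalization. The summed signal of these markers was 5183 to 6313 in Lewis and 8589 to 8661 in Dahl S.

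**Figure D4:**
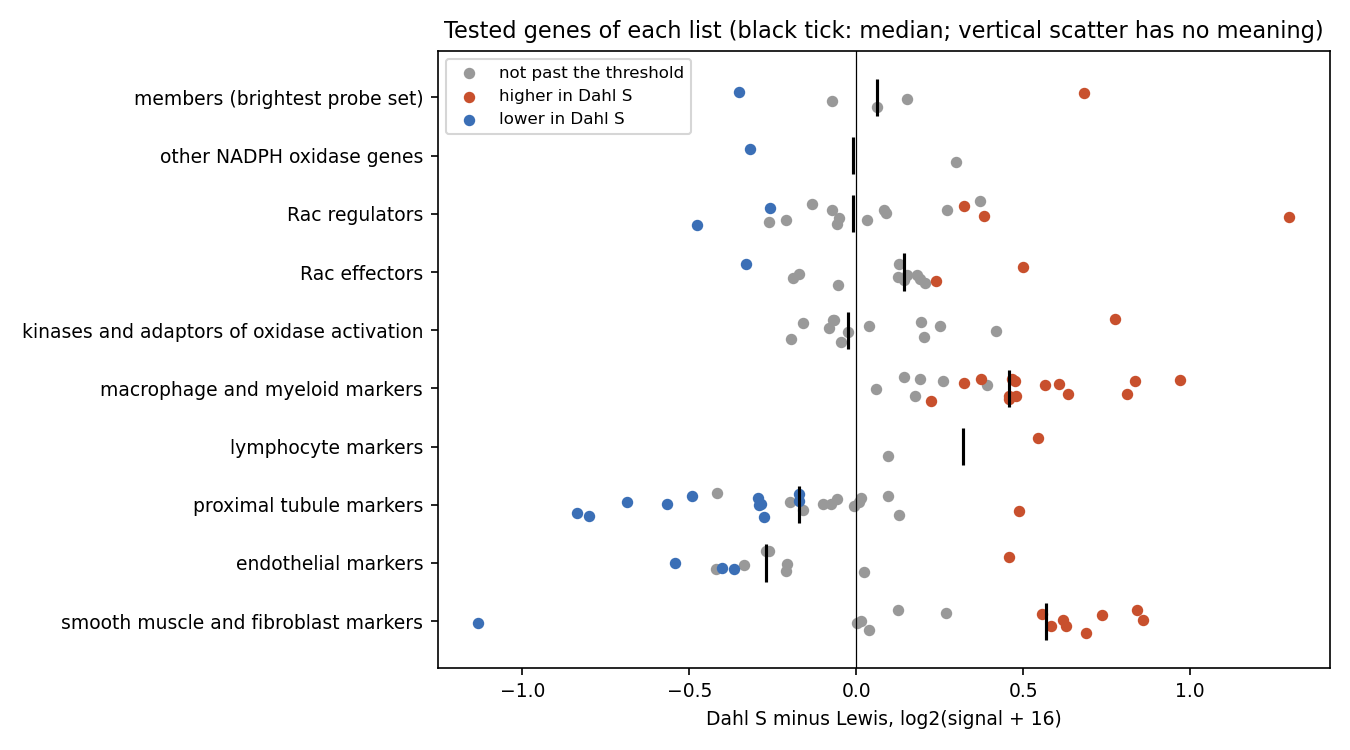
Dahl S minus Lewis difference in log2(signal + 16) of each tested gene in the members and the gene lists (points; orange, higher; blue, lower; grey, not past the threshold), with the median of each list (black tick). Macrophage and myeloid markers lie to the right, with a median of 0.46, and proximal tubule markers to the left, with a median of -0.17.

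Few other NADPH oxidase genes could be measured. Of 12 listed, 6 had a probe set and 2 were tested. Poldip2, whose product binds p22phox and raises NOX4 activity, fell by 0.32 (SE 0.08, limma adjusted p = 0.013), from 9.499 ± 0.025 in Lewis to 9.18 ± 0.05 in Dahl S (SD, n = 3 each). A second probe set of Poldip2 gave -0.05 (adjusted p = 0.80), and the first no longer passed when Dahl S array 1 (adjusted p = 0.060) or 3 (0.085) was left out, or without normalization (0.12, adjusted p = 0.78). Cybc1, a chaperone of NOX2 and p22phox, differed by 0.30 (SE 0.105, adjusted p = 0.076). Noxo1, an organizing subunit of the NOX1 enzyme, and Duox2, a dual oxidase of epithelia, were too dim to test, at normalized means of 4.37 and 5.07 in Lewis and 4.39 and 5.07 in Dahl S. Noxa1 and Duox1 had no probe set carrying the symbol alone and were not analysed here.

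Of 16 tested genes listed as Rac regulators, mostly genes that switch Rac proteins on or off, 3 rose, 2 fell and 11 did not pass. The median of the list was -0.01. With 9.04% of all genes higher and 7.62% lower, counts this small do not set the list apart. Trio, an exchange factor gene, rose by 1.30 (SE 0.10, limma adjusted p = 4.9e-06) on its brightest probe set but differed by 0.17 (adjusted p = 0.37) on another. Arhgdib, a blood cell gene whose product keeps Rac proteins inactive, rose by 0.32 (SE 0.08), which did not pass when Dahl S array 1 or 3 was left out or without normalization. Elmo2, a partner of DOCK exchange factors, rose by 0.38 (SE 0.11), but not when Lewis array 1 or 2 or Dahl S array 1 or 2 was left out. Fmnl1, a leukocyte formin gene placed in this list, fell by 0.48 (SE 0.09), and differed by -0.04 without normalization.

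Most Rac effectors and most kinases that act on the oxidase did not pass. Of 13 effectors 2 rose, 1 fell and 10 did not pass, with a median of 0.14. With 9.04% of all genes higher and 7.62% lower, such counts do not set the effectors apart. Nckap1l, the blood cell subunit of the WAVE actin complex, rose by 0.50 (SE 0.13), but it was tested only through the Dahl S arrays, since all its Lewis values lay under the filter. It did not pass without the filter (adjusted p = 0.062) or when Lewis array 2 or any 1 Dahl S array was left out. Cyfip1 rose by 0.24 (SE 0.07) and Iqgap2 fell by 0.33 (SE 0.10), and neither passed when any 1 Dahl S array or Lewis array 2 was left out, nor did Cyfip1 without Lewis array 3 or Iqgap2 without Lewis array 1. Of 13 kinases and adaptors 1 rose and 12 did not pass, with a median of -0.03, a count near the same shares of all genes. The gene that rose was Fgr, a Src family kinase gene of myeloid cells, at 0.78 (SE 0.15, limma adjusted p = 0.0042). All its Lewis values lay under the filter, so it too was tested only through the Dahl S arrays, and its adjusted p without the filter was 0.023.

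The tested genes whose pattern over the 6 arrays was closest to that of Nox4, by the root mean square difference of centred log2 values, were the glutathione transferase gene Gsta4 (0.02), the tubulin chaperone gene Tbcd (0.02) and Drg2 (0.04). They fell by 0.37, 0.33 and 0.32 on the log2 scale. Closest to Cybb were Pm20d2 (0.03), Gucy1b2 (0.03) and Ahsa1 (0.04), none of which passed the limma threshold. Such likeness was common: 373 genes lay within 0.1 of Nox4 and 376 within 0.1 of Cybb.

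**Figure D5:**
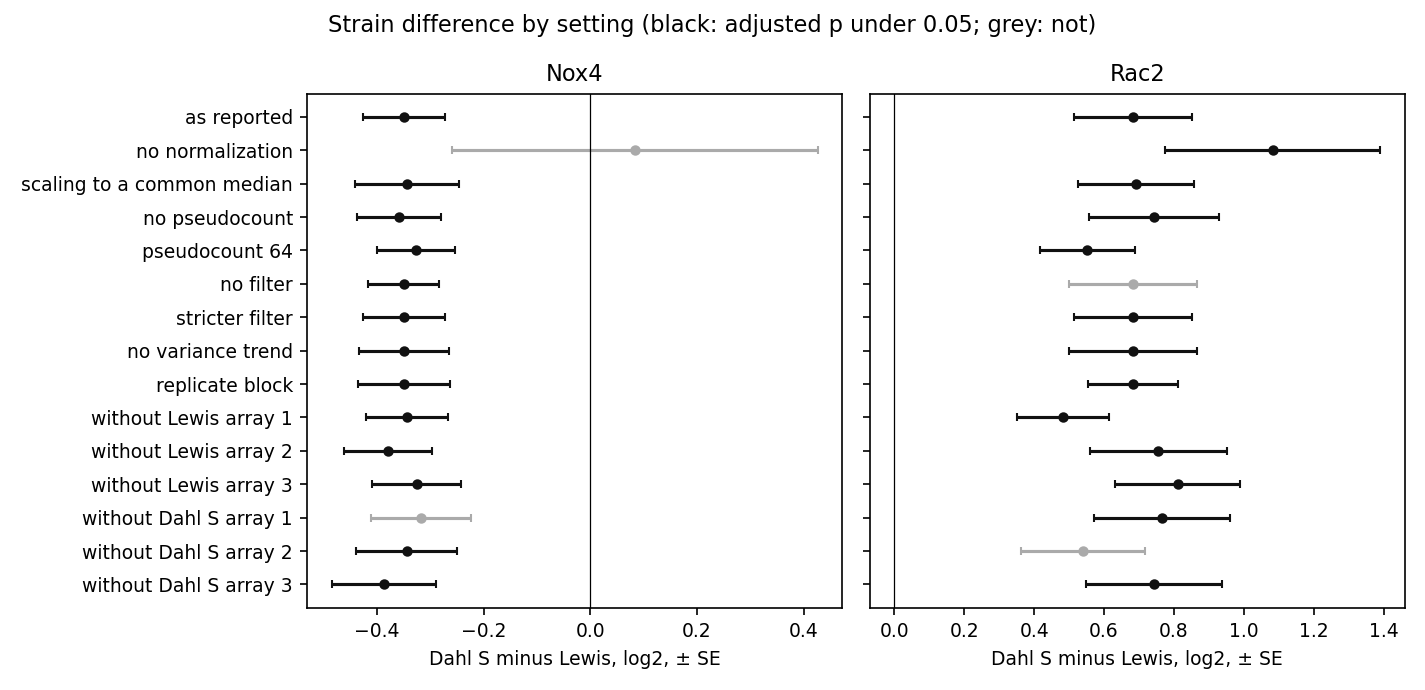
Dahl S minus Lewis difference of Nox4 and Rac2 in log2 units (points, with limma's SE) under each setting of the processing, in black where the adjusted p was under 0.05 and in grey where it was not. Nox4 stays between -0.39 and -0.32 except without normalization (0.08), and Rac2 stays above 0 in every setting shown, between 0.48 and 1.08.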

How the data were processed

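The deposited table holds 1 linear signal intensity per probe set and array, which the authors computed with GeneChip Operating Software version 1.4, per the labels' design text. None of the sources used here states a scaling target or detection calls, and the intensities were not at a common level. From these, log2(signal + 16) was quantile normalized (16 is near the lower quartile of all values, 16.2), and 57 control probe sets were left out. Of 31042 probe sets 20826 had 1 gene symbol, of which 20758 matched the RefSeq gene table (GRCr8), 436 had several and 9780 none. Strains were compared with limma 3.58.1 (R 4.3.3), using a variance trend. A gene was represented by its brightest tested probe set. SE are those of limma, and for pairs of genes those of the difference of strain means. The number of arrays limits the precision, and nothing states how rats or litters relate beyond 1 rat per array.

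On simulated data with 200 changed probe sets the fit recovered 56.1% of changes of 0.5 log2 and 93.7% of changes of 1, with 2 false calls among 162. The changed probe sets were all brighter than the median, and the simulated noise was independent between probe sets. In the real data 16.2% of probe sets were called, so these rates need not hold there. The named genes are all members, up to 4 called genes per list with the smallest adjusted p, a few oxidase and GTPase genes whatever their values, and 3 genes most like Nox4 and Cybb. Some items named by this rule are not reported here. Members and lists were chosen with earlier results of these data known. Alternatives were other normalizations, pseudocounts, filters and variance priors, a replicate block and each array left out, with normalized values and tested probe sets kept.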

Additional observations from a re-analysis of the deposited data

How the results depend on the processing

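Over the settings run for the members, their pairs and the counts of called probe sets, 208 values were labelled the same. A further 14 moved further, 7 reversed and 3 lost the call. The same meant an unchanged direction and side of the threshold for a probe set. For a pair it meant an unchanged direction and a shift within the spread between arrays, and for a count a change within a fixed ratio. Without normalization 666 probe sets were higher and 47 lower, 0 members were lower, Nox4 turned to 0.084, Cyba to 0.33 and the second Rac1 probe set to 0.39, and Nox4 minus Ncf1 was -0.36. Without a filter 0 members were higher (Rac2 0.68, adjusted p = 0.064). With the other Cyba probe set Nox4 minus Cyba was -0.50. With any 1 array left out, probe sets higher ran from 763 to 1449 and lower from 725 to 1338, members higher and members lower each from 0 to 1, Nox4 from -0.39 to -0.32 and Rac2 from 0.48 to 0.81. Over the same settings Cybb ran from -0.034 to 0.14, Cyba from -0.17 to 0.023 and the second Rac1 probe set from -0.037 to 0.023 (also above 0, at 0.0038, without Lewis array 1), none of them called. The counts were lowest without a Dahl S array: 802, 837 and 763 higher and 774, 805 and 725 lower without Dahl S array 1, 2 and 3. The cause of these changes was not tested.

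Strains share replicate numbers, but same-numbered arrays did not deviate together (correlations of deviations -0.05, -0.10 and 0.11), so the numbers were not taken as pairs. With the replicate block 1295 probe sets were higher and 1199 lower, Nox4 had an adjusted p of 0.015 and Rac2 of 0.0030. The arrays numbered 1 and 2 correlated best with each other's number, and only those numbered 3 with their own. Detection limits are unknown, so values near the pseudocount (Ncf1, Nox1) have little meaning as levels.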

Other observations

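In limma's fit of all probe sets without a filter, where 6.55% were called, a few dim genes that the tests above left out can be given a value. Arhgap25, a Rac-inactivating protein gene of leukocytes, had normalized means of 4.84 ± 0.35 in Lewis and 5.78 ± 0.11 in Dahl S (SD, n = 3 each), a difference of 0.94 (SE 0.20, adjusted p = 0.027). Of the 16 measured lymphocyte markers 1 was called in this fit, the cytotoxic granule gene Nkg7, with a difference of 0.93 (SE 0.22, adjusted p = 0.041). With 6.55% of all probe sets called, 1 of 16 does not set the list apart. The median of the 16 was 0.27, but most were too dim for the tests above. No median over all genes in this fit was taken for comparison. The B cell gene Cd22 (-0.52, adjusted p = 0.24) and the granzyme gene Gzmb (-0.19, adjusted p = 0.62) lay on the other side of 0. Of the 9 measured neutrophil markers 0 were called by limma: S100a9, whose product forms with S100a8 a calcium-binding complex that assists the phagocyte oxidase, differed by 0.79 (SE 0.21, adjusted p = 0.057) and the antimicrobial peptide gene Camp by -0.35 (adjusted p = 0.41). These genes were named after their values were seen, and in the same fit Rac2 gave an adjusted p of 0.064.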
